A study of Mus musculus with 6 samples.

Results

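The 10 genes examined here belong to the signalling that controls integrins at the T cell surface, most of it through the small GTPase Rap1. They are Rap1a, Rap1b, Rasgrp2, Sipa1, Apbb1ip, Rassf5, Tln1, Fermt3, Cyth1 and Cytip. They were taken by gene symbol from the deposited count table, where each of the 10 matched 1 of 55536 gene rows, and all 10 had enough reads to be tested among 15519 genes. The measurements came from 2D2 CD4+ T cells, which carry a T cell receptor specific for a myelin peptide, on the C57BL/6 background. HDAC1-cKO cells had the genotype 2D2-Hdac1fl/fl-Cd4-Cre+, so that the histone deacetylase gene Hdac1 was removed by Cre under the Cd4 promoter, and WT cells had the genotype 2D2-Hdac1fl/fl-Cd4-Cre-, with the same floxed alleles and no Cre. Naive CD45.2+ donor cells of either genotype were injected into CD45.1+ mice, which were immunised in the footpad with MOG35-55 peptide in complete Freund's adjuvant 18 hours later. Donor cells were sorted from the popliteal lymph nodes after 4 days, 500 for each library, with 2 mice pooled per library and 3 libraries per genotype. Because Cd4-Cre acts during thymic development, HDAC1-cKO cells had lacked the enzyme before transfer. All mice were immunised, and no unimmunised control was among the samples. Donor cells that were not in the popliteal lymph nodes at that time were not sampled.

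Integrins on a circulating T cell are mostly bent and bind their ligands weakly. Signals from the T cell receptor or a chemokine receptor load Rap1 with GTP, and Rap1 effectors then bring talin and kindlin to the tail of the integrin beta chain, which straightens the receptor and lets the cell arrest and crawl. This inside-out signalling is needed for T cells to enter lymph nodes and inflamed tissue, and loss of kindlin-3 causes a leukocyte adhesion deficiency in humans. Activation is controlled mainly through GTP loading, protein contacts and position in the cell, none of which a transcript count measures.

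Hdac1 was measured at 17.2, 14.7 and 15.4 CPM (the count of a gene relative to its library total, after TMM scaling) in HDAC1-cKO libraries 1 to 3, against 234, 236 and 244 CPM in WT, and fell to 6.63% of the WT level (edgeR adjusted p = 9.59e-06). The total count lay between 19956153 and 36307610 in HDAC1-cKO libraries and between 39036751 and 55900237 in WT libraries, so that every HDAC1-cKO total was below every WT total. Counts thinned to the smallest total gave the same 0 calls among the members. The p-values below measure the spread among 3 libraries per genotype, each from a pool of recipient mice. That spread includes differences in library preparation. How donor mice were spread over the libraries is not given here. Summed over 7 T cell markers, the level was 4426 to 5067 CPM in HDAC1-cKO, against 5006 to 6073 CPM in WT, where HDAC1-cKO replicate 2 was the highest of its group and the other HDAC1-cKO libraries stood at 4426 and 4492 CPM. Of these T cell markers Cd3e, a chain of the T cell receptor complex, fell, and the part of this in the results below was not tested. Summed over 6 CD8 T cell and NK cell markers, the level was 78.8 to 102.8 CPM in HDAC1-cKO, against 54.1 to 107.8 CPM in WT. Within that list Cd8b1 stood at 64.6 to 71.4 CPM in HDAC1-cKO and at 45.0 to 57.0 CPM in WT, Klrk1 reached 32.7 CPM in HDAC1-cKO, against 59.4 CPM in WT, Cd8a stayed at or below 2.55 CPM, and Ncr1 was at 0. 1 library, HDAC1-cKO replicate 2, was unlike the other 5. It lay at -58.9 on the second principal component, where the others lay between -18.0 and 37.4. Its deviations correlated with transcript GC content at r = 0.641 across 4953 well-expressed genes, against -0.322 to -0.068 elsewhere. With the log2 of transcript length they correlated at r = -0.317, against -0.023 to 0.259 elsewhere. Deviations were taken from the mean of all 6 libraries, replicate 2 included.

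None of the 10 genes passed the test between genotypes. With edgeR's quasi-likelihood test and Benjamini-Hochberg adjustment over 15519 genes, 0 members were higher and 0 were lower in HDAC1-cKO at an adjusted p under 0.05. Across all genes tested 1.97% passed, 0.979% higher and 0.992% lower. At an unadjusted p under 0.05 there were 4 members, Apbb1ip, Rap1a, Cytip and Rassf5, all lower in HDAC1-cKO, where 17.0% of all genes tested reached that level in either direction and 8.39% were lower. In the same 4 genes every HDAC1-cKO library lay below every WT library, which held for 11.8% of all genes tested and, counting both directions, for 24.6%. The libraries of both genotypes overlapped in the other 6. Of the 10 log2 fold changes 7 were negative and 3 positive, with a median of -0.23, where the median over all genes tested was -0.00207 and 50.3% were negative. DESeq2 and limma-voom with sample weights each placed 1 member past the threshold, Apbb1ip in both, where they called 7.89% and 10.2% of the genes they tested.

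Rap1a and Rap1b encode the closely related GTPases at the centre of this pathway. Their mRNAs differ enough to be told apart by the 50-base reads used here, as the first 120 bases of the coding sequences show. Both are from GENCODE M21 transcripts, written 5′ to 3′ on the coding strand, with capitals at the 17 positions where the other gene has another base.
Rap1a: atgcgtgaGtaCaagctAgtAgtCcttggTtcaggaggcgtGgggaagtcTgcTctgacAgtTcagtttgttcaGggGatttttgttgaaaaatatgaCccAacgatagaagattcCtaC
Rap1b: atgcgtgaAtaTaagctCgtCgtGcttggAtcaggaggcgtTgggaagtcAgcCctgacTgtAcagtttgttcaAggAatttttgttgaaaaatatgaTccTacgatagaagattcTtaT
Over their 555 coding bases the 2 genes were 81.6% identical, the longest identical run was 20 bases, and their annotated transcripts shared 0 stretches of 50 bases. Rap1a shared 7.93% of its 50-base stretches with Gm9392 on chromosome 7, which stood at 10.6 to 12.8 CPM in HDAC1-cKO and at 16.2 to 18.3 CPM in WT. The effect of reads that match both on the Rap1a values was not tested.

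Rap1a lies on chromosome 3 (105727267 to 105801336, minus strand, GRCm38). Its level was 177, 112 and 189 CPM in HDAC1-cKO libraries 1 to 3, against 235, 238 and 218 CPM in WT. All 3 HDAC1-cKO libraries lay below the WT libraries, with replicate 2 the lowest. Means were 159.5 ± 41.2 CPM in HDAC1-cKO, against 230.4 ± 11.0 CPM in WT (SD, n = 3 each). The log2 fold change was -0.53 ± 0.19 (SE), with a 95% interval of -0.96 to -0.10 for this gene alone and an edgeR adjusted p of 0.195. Without HDAC1-cKO replicate 2 it was -0.34 ± 0.08, with an edgeR adjusted p of 0.0691.

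Rap1b, on chromosome 10 (117813871 to 117846035, minus strand), gave 499, 260 and 582 CPM in HDAC1-cKO, against 394, 632 and 512 CPM in WT. Here the genotypes overlapped, and replicate 2 was the single low HDAC1-cKO library. For Rap1b the log2 fold change was -0.20 ± 0.29 (SE, edgeR adjusted p = 0.800), which became 0.07 ± 0.19 when that library was omitted (edgeR adjusted p = 0.897). Rap1b was also the member that varied most within WT, with a coefficient of variation of 23.1%, where Rap1a had 4.77%. On the FPKM scale, which divides by length, there was more Rap1b than Rap1a in all 6 libraries. The ratio was 2.49, 2.04 and 2.72 in HDAC1-cKO and 1.48, 2.34 and 2.08 in WT. The ranges overlapped through HDAC1-cKO replicate 2 alone: without it both HDAC1-cKO ratios lay above all WT ratios. Ratios of other gene pairs were not tested for this, but 39.4% of all genes tested did not overlap without HDAC1-cKO replicate 2, counting both directions. Summed, Rap1a and Rap1b came to 253.4, 139.8 and 288.5 FPKM in HDAC1-cKO libraries 1 to 3, against 238.7, 327.4 and 276.6 FPKM in WT, and these ranges overlapped with or without that library.

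Rasgrp2 encodes CalDAG-GEFI, a calcium- and diacylglycerol-regulated exchange factor that loads Rap1 with GTP, and Sipa1 encodes SPA-1, a GTPase-activating protein that returns Rap1 to its inactive form. Rasgrp2 (chromosome 19, 6399340 to 6415216, plus strand) stood at 263, 191 and 260 CPM in HDAC1-cKO and at 196, 240 and 225 CPM in WT. Without HDAC1-cKO replicate 2 the other HDAC1-cKO libraries lay above all WT libraries. Counting both directions, 39.4% of all genes tested did not overlap when that library was omitted. With all libraries the log2 fold change was 0.11 ± 0.15 (SE, edgeR adjusted p = 0.778), and without that library 0.24 ± 0.10 (edgeR adjusted p = 0.231). Sipa1 (chromosome 19, 5651185 to 5663707, minus strand) stood at 59.0, 89.5 and 62.7 CPM in HDAC1-cKO and at 61.4, 60.3 and 65.7 CPM in WT. Replicate 2 was the only HDAC1-cKO library above the WT range. The log2 fold change of Sipa1 was 0.17 ± 0.17 (SE, edgeR adjusted p = 0.686) and turned to -0.05 ± 0.10 when it was omitted (edgeR adjusted p = 0.866). Intervals at 95% for single genes, from -0.23 to 0.46 for Rasgrp2 and from -0.22 to 0.57 for Sipa1, left out a 2-fold change in either direction.

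Apbb1ip and Rassf5 encode the effectors that bind GTP-loaded Rap1. The product of Apbb1ip, RIAM, carries talin to the membrane, and the product of Rassf5 includes RAPL, which binds the alpha chain of LFA-1 and the kinase MST1. Apbb1ip (chromosome 2, 22774094 to 22875653, plus strand) was the member with the least RNA, at 120 to 232 counts per library in HDAC1-cKO and 422 to 665 in WT. Its level was 7.11, 3.42 and 5.88 CPM in HDAC1-cKO libraries 1 to 3, against 9.54, 12.1 and 11.1 CPM in WT. The genotypes did not overlap, and means were 5.47 ± 1.88 and 10.9 ± 1.28 CPM (HDAC1-cKO and WT, SD, n = 3 each). Its log2 fold change of -0.999 ± 0.29 (SE) was the most negative of the 10 and had an edgeR adjusted p of 0.124. The value was -0.75 ± 0.21 with HDAC1-cKO replicate 2 omitted (edgeR adjusted p = 0.0964) and ranged from -1.25 to -0.75 when any 1 library was left out. Apbb1ip had an adjusted p of 0.0211 in DESeq2 and 0.0324 in limma-voom with sample weights. Over all other settings tried it ranged from 0.0680 to 0.332.

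Myeloid cells also express Apbb1ip. Summed over 10 myeloid and dendritic cell markers, the level was 6.65 to 11.1 CPM in HDAC1-cKO, against 6.83 to 27.1 CPM in WT. Csf1r, Flt3 and Clec9a were at 0 in every library. Lyz2 stood at 0.98 to 3.75 CPM in HDAC1-cKO and at 2.03 to 22.6 CPM in WT. Cd68 stood at 2.48 to 6.21 CPM in HDAC1-cKO and at 2.01 to 2.20 CPM in WT. Summed over 7 B cell markers, the level was 37.4 to 74.5 CPM in HDAC1-cKO, against 20.7 to 45.2 CPM in WT. HDAC1-cKO replicate 2 was the highest, and the other HDAC1-cKO libraries stood at 37.4 and 42.0 CPM. The part of myeloid or B cells in the Apbb1ip values was not tested. Platelets, which are rich in Fermt3 and Rasgrp2, left almost no marker RNA: 7 platelet markers summed to at most 0.343 CPM in HDAC1-cKO, against 0.290 CPM in WT, and Pf4, Ppbp, Gp9, Gp1bb and Treml1 had no count in any library. In RNA from pooled cells, fewer cells that express a gene and less RNA per cell cannot be told apart.

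Rassf5 (chromosome 1, 131176410 to 131245258, minus strand) was measured at 240, 278 and 249 CPM in HDAC1-cKO and at 338, 304 and 280 CPM in WT. The groups did not overlap, but only narrowly, since the highest HDAC1-cKO library was next to the lowest WT library. Its log2 fold change was -0.26 ± 0.11 (SE, edgeR adjusted p = 0.288), and -0.34 ± 0.10 with HDAC1-cKO replicate 2 omitted (edgeR adjusted p = 0.102). The count covers the whole gene, so RAPL and the longer product of the same gene were not separated.

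Talin-1 and kindlin-3, encoded by Tln1 and Fermt3, bind the integrin beta tail directly and jointly. Tln1 (chromosome 4, 43531519 to 43562691, minus strand) stood at 67.6, 107 and 78.2 CPM in HDAC1-cKO and at 108, 108 and 94.7 CPM in WT. HDAC1-cKO replicate 2 alone reached the WT range. For Tln1 the log2 fold change was -0.30 ± 0.18 (SE, edgeR adjusted p = 0.451) with all libraries. Without replicate 2 it was -0.52 ± 0.11, and its edgeR adjusted p of 0.0527 was the lowest among the members in that fit. Exons of Creb3 on the opposite strand cover 3.67% of the exon bases of Tln1, and the library kit did not mark strand. Creb3 stood at 97.4 to 134 CPM in HDAC1-cKO, against 81.6 to 99.8 CPM in WT, and its part in the Tln1 values was not tested. Opposite-strand exons also cover 1.54% of Fermt3, 1.95% of Rassf5 and 2.14% of Rasgrp2.

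Fermt3 (chromosome 19, 6998958 to 7019469, minus strand) gave 261, 451 and 311 CPM in HDAC1-cKO, against 337, 310 and 342 CPM in WT. Replicate 2 was the highest of all 6 libraries. For Fermt3 the log2 fold change was 0.05 ± 0.19 (SE, edgeR adjusted p = 0.934), and -0.21 ± 0.10 without that library (edgeR adjusted p = 0.287). The 95% interval with all libraries ran from -0.39 to 0.49.

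Cytohesin-1, the product of Cyth1, is an exchange factor for ARF GTPases that binds the tail of the integrin beta-2 chain, and Cytip encodes a partner that binds cytohesin-1 and draws it away from the membrane. Cyth1 (chromosome 11, 118132019 to 118248592, minus strand) was measured at 35.5, 60.1 and 41.5 CPM in HDAC1-cKO and at 46.2, 51.1 and 53.4 CPM in WT. Replicate 2 was the highest library of all, and the other HDAC1-cKO libraries were the lowest. The log2 fold change was -0.13 ± 0.20 (SE, edgeR adjusted p = 0.802) and, without replicate 2, -0.39 ± 0.13 (edgeR adjusted p = 0.137). Cytip (chromosome 2, 58129137 to 58195532, minus strand) was measured at 503, 398 and 575 CPM in HDAC1-cKO and at 580, 668 and 700 CPM in WT. Its groups did not overlap, although HDAC1-cKO replicate 3 and WT replicate 1 were close. The log2 fold change of Cytip was -0.40 ± 0.15 (SE, edgeR adjusted p = 0.222), and -0.28 ± 0.11 without replicate 2 (edgeR adjusted p = 0.201).

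**Figure D1:**
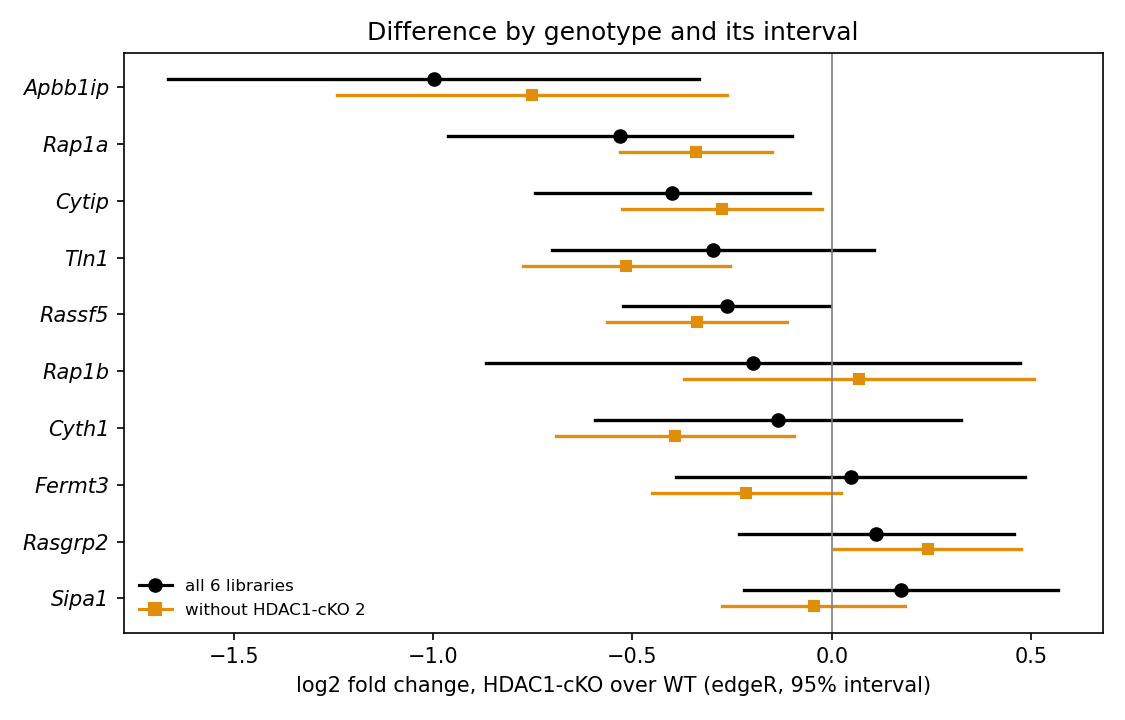
Log2 fold change, HDAC1-cKO over WT, of the 10 genes (points) with 95% intervals for single genes (bars), from edgeR fits with all 6 libraries (black circles) and without HDAC1-cKO replicate 2 (orange squares). Apbb1ip is farthest left at -0.999, and Fermt3, Rap1b and Sipa1 change sign when the library is left out.

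The position of HDAC1-cKO replicate 2 followed the base composition of each member. It was the highest of the 3 HDAC1-cKO libraries for Fermt3, Cyth1, Sipa1, Tln1 and Rassf5, and the lowest of all 6 libraries for Rap1a, Rap1b, Apbb1ip, Cytip and Rasgrp2. The first 5 have a GC content of 52.4 to 61.2% in their longest annotated transcript, and the other 5 have 38.8 to 50.1%. On the log2 scale, replicate 2 over the mean of HDAC1-cKO replicates 1 and 3 ranged from -1.06 in Rap1b, which has a GC content of 39.9%, to 0.66 in Fermt3, which has 57.5%. Across the 10 members this ratio correlated with GC content at Pearson r = 0.940. The 10 points share the same 3 libraries, and the correlation is a description of them.

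**Figure D2:**
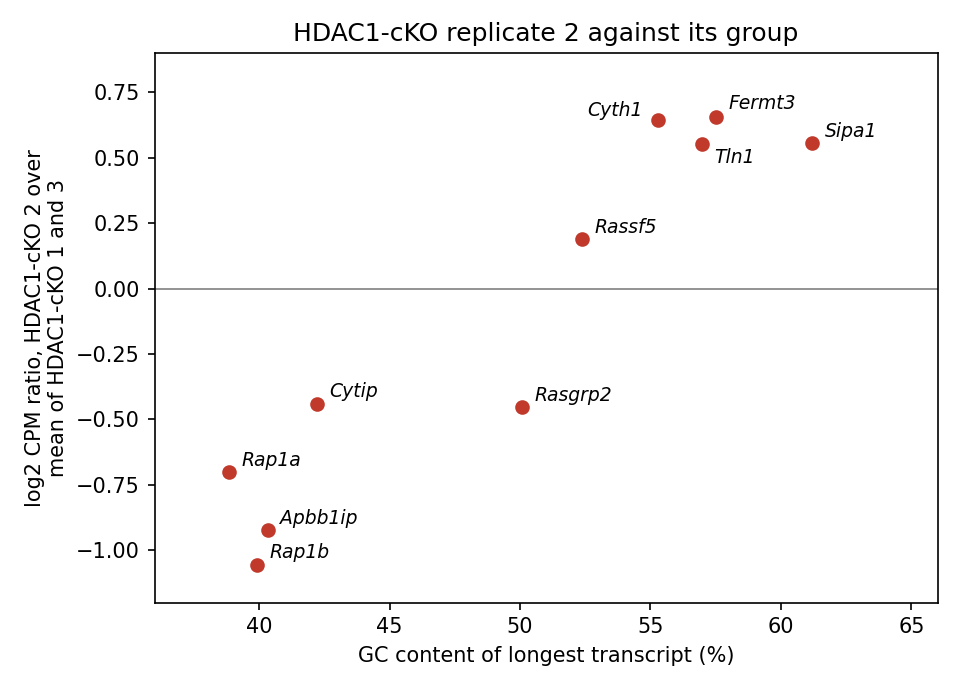
GC content of the longest annotated transcript (x axis, percent) against the log2 CPM ratio of HDAC1-cKO replicate 2 over the mean of HDAC1-cKO replicates 1 and 3 (y axis) for the 10 genes, 1 point per gene. The 5 genes above 0 are those of highest GC content, and Rap1b is lowest at -1.06.

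Without this library 8 of the 10 log2 fold changes were negative and 2, those of Rasgrp2 and Rap1b, were positive, with a median of -0.31. Fermt3, Rap1b and Sipa1 changed sign. The libraries of 7 members then did not overlap, with HDAC1-cKO below WT in 6 and above it in Rasgrp2, where 39.4% of all genes tested did not overlap and 19.4% had HDAC1-cKO below WT. At an unadjusted p under 0.05 there were then 7 members, 6 lower and Rasgrp2 higher, where 20.7% of all genes in that fit reached this level, and 0 passed the edgeR adjusted threshold, where 3.88% of all genes did. With per-library GC offsets in the model, a setting chosen after seeing the data, the log2 fold changes were -0.84 for Apbb1ip, -0.32 for Rap1a, -0.39 for Tln1 and -0.05 for Fermt3, and the lowest edgeR adjusted p among the members was 0.0734.

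Within each genotype the members covered a wide range of levels. On the deposited FPKM scale, Rap1b averaged 161.9 ± 60.8 in HDAC1-cKO and 186.2 ± 43.4 in WT, and Apbb1ip 1.95 ± 0.67 in HDAC1-cKO and 3.89 ± 0.47 in WT (SD, n = 3 each). Between them, in falling order by mean FPKM, came Fermt3, Cytip, Rap1a, Rassf5, Rasgrp2, Sipa1, Cyth1 and Tln1 in both genotypes. This shared order rested on HDAC1-cKO replicate 2: Rassf5 exceeded Rasgrp2 in only 1 of 3 HDAC1-cKO libraries, and without replicate 2 the HDAC1-cKO means were 61.5 FPKM for Rassf5 and 64.8 FPKM for Rasgrp2, against 77.4 and 54.6 FPKM in WT. The other 8 members kept their ranks. In HDAC1-cKO the ranges of neighbours in this order were apart only between Fermt3 and Cytip, between Rasgrp2 and Sipa1, and between Tln1 and Apbb1ip, while without replicate 2 all neighbours were apart. In WT they overlapped only between Cytip and Rap1a and between Sipa1 and Cyth1. Talin-1 mRNA stood well below kindlin-3 mRNA per length, at 9.89 ± 2.36 against 129.9 ± 37.2 FPKM in HDAC1-cKO. In WT they stood at 12.2 ± 0.86 against 126.1 ± 6.61 FPKM. Their longest annotated transcripts have 8393 and 2988 bases, and the part of transcript length in this gap was not tested. Among the 15519 genes tested, the WT mean FPKM of Rap1b lay at percentile 96.2, that of Tln1 at 66.3 and that of Apbb1ip at 47.5. The corresponding percentiles in HDAC1-cKO were 95.3, 63.1 and 35.7, and without replicate 2 96.3, 60.8 and 38.9.

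**Figure D3:**
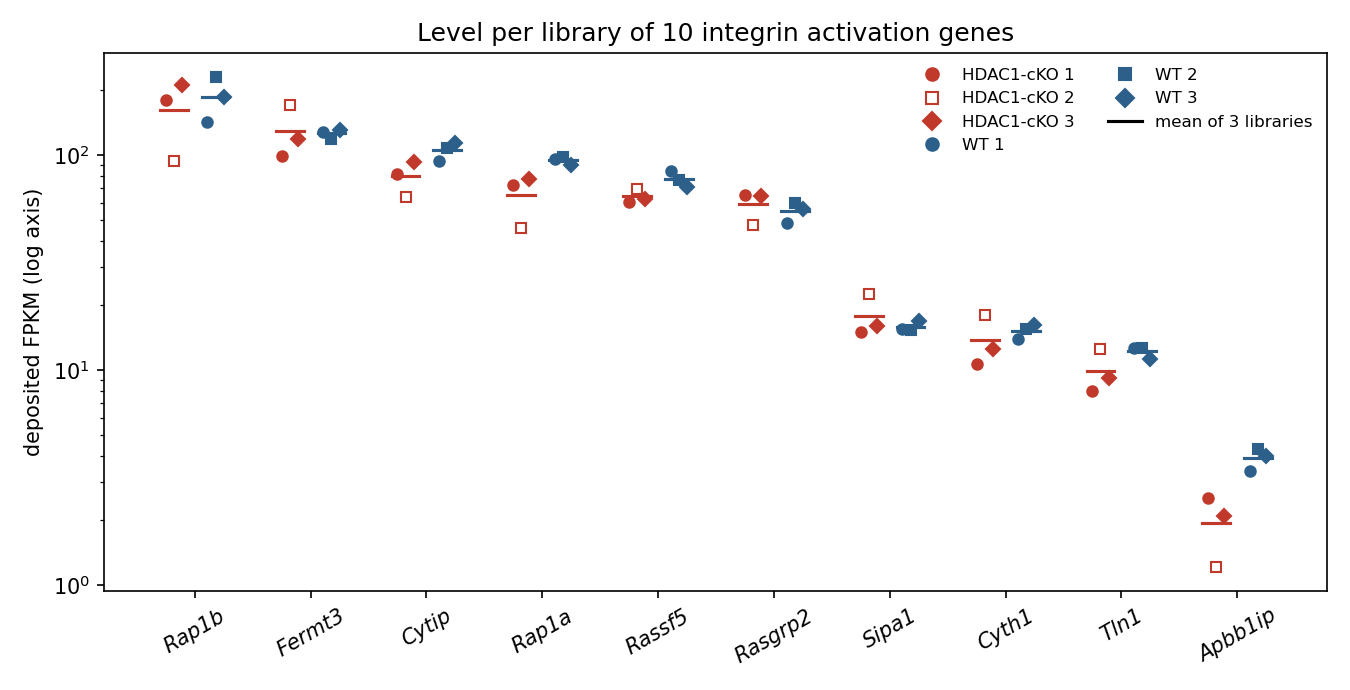
Deposited FPKM (log axis) of the 10 genes in each library, HDAC1-cKO in red and WT in blue, with marker shape for the replicate and a line for the mean of 3 libraries. Genes are ordered by WT mean, from Rap1b at 186.2 to Apbb1ip at 3.89 FPKM, and the open squares of HDAC1-cKO replicate 2 lie at an end of the HDAC1-cKO range for every gene.

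The effectors differed in level: RNA for Rassf5 exceeded that for Apbb1ip in every library, by an FPKM ratio of 23.8, 57.4 and 29.96 in HDAC1-cKO libraries 1 to 3 and of 25.0, 17.7 and 17.8 in WT. The ranges overlapped, also without HDAC1-cKO replicate 2. For the exchange factor over the GTPase-activating protein, Rasgrp2 over Sipa1, the FPKM ratio was 4.33, 2.08 and 4.03 in HDAC1-cKO and 3.10, 3.87 and 3.33 in WT, with the ranges overlapping through HDAC1-cKO replicate 2 alone. Cytip over Cyth1 gave 7.59, 3.54 and 7.43 in HDAC1-cKO and 6.73, 7.001 and 7.02 in WT, again with overlap through replicate 2 alone. Without it the HDAC1-cKO values of both ratios lay above all WT values. With the same library left out, 39.4% of all genes tested did not overlap, counting both directions. How often ratios of other gene pairs separate in this way was not tested.

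Around these 10 genes, 68 others of the pathway were listed by role, and 59 of them were tested. Of these, 0 rose and 4 fell in HDAC1-cKO by edgeR's adjusted test, where 0.979% of all genes rose and 0.992% fell. Of the 59 log2 fold changes 46 were negative, with a median of -0.31. Over all genes tested 50.3% were negative and the median was -0.00207. Without HDAC1-cKO replicate 2, 1 rose and 11 fell, 47 were negative and the median was -0.29. In that fit 3.88% of all genes passed in either direction, and the median over all genes was -0.00993. With any other library left out, 0 rose and 0 fell, where 26 to 49 of 16087 to 16224 genes passed in all. With all libraries the 4 that fell were Rasa3, Dok2, Lims1 and Lcp2.

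Rasa3, a GTPase-activating protein for Ras and Rap1 known from mouse platelets, stood at 71.2, 57.5 and 66.6 CPM in HDAC1-cKO and at 95.3, 122 and 120 CPM in WT (log2 fold change -0.79 ± 0.14, SE, edgeR adjusted p = 0.0370). Dok2, an adaptor that dampens T cell receptor signalling, stood at 118, 198 and 134 CPM in HDAC1-cKO and at 388, 342 and 384 CPM in WT (log2 fold change -1.30 ± 0.19, SE, edgeR adjusted p = 0.0249). Neither gene's libraries overlapped between genotypes. Lims1 encodes PINCH-1, which joins integrin-linked kinase at adhesion sites. It stood at 55.1, 50.6 and 52.8 CPM in HDAC1-cKO and at 79.1, 93.4 and 80.2 CPM in WT (log2 fold change -0.67 ± 0.12, SE, edgeR adjusted p = 0.0347). Lcp2, which encodes the receptor-proximal adaptor SLP-76, stood at 361, 432 and 334 CPM in HDAC1-cKO and at 613, 541 and 603 CPM in WT (log2 fold change -0.64 ± 0.12, SE, edgeR adjusted p = 0.0444). When 1 library was left out, each of the 4 genes passed only if that library was HDAC1-cKO replicate 2. Otherwise each had an edgeR adjusted p of up to 0.167, in fits that called only 26 to 49 genes in all. The calls of Lims1 and Lcp2 also ended with the GC offsets (edgeR adjusted p = 0.108 and 0.0560).

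The counts by role stand beside 1.97% of all genes that passed with all libraries, 0.979% higher and 0.992% lower. By role, 0 of 8 other Rap exchange factors passed and the median on the log2 scale was -0.39. The one with the lowest p was Rasgrp1, an exchange factor mainly for Ras, at -0.69 ± 0.21 (SE, edgeR adjusted p = 0.146). Of 5 other Rap GTPase-activating proteins 1 fell, which was Rasa3. The Rap2 GTPases, relatives of Rap1, gave 0 of 3, with Rap2b at -0.54 ± 0.15 (SE, edgeR adjusted p = 0.121). Among 13 effectors and scaffolds 0 passed and the median was -0.30. Without HDAC1-cKO replicate 2, 3 of the 13 fell, where 3.88% of all genes in that fit passed in either direction. Fyb, which encodes the SLP-76 partner ADAP, was at -0.96 (edgeR adjusted p = 0.00752). The protein kinase gene Prkd2 was at -0.81 (edgeR adjusted p = 0.0234) and Stk4 at -0.54 (edgeR adjusted p = 0.0412). With all libraries the lowest p belonged to Stk4, which encodes the RAPL partner MST1. It stood at 89.6, 88.7 and 74.9 CPM in HDAC1-cKO, against 115, 124 and 118 CPM in WT (log2 fold change -0.50 ± 0.12, SE, edgeR adjusted p = 0.0721).

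Other cytohesins and ARF genes gave 0 of 6, with Cyth4 at -0.40 ± 0.12 (SE, edgeR adjusted p = 0.126). Relatives and partners of talin and kindlin gave 1 of 9 lower, Lims1, and 6 more were not tested. The other kindlin genes Fermt1 and Fermt2 had no count in any library, and the second talin gene Tln2 had at most 16. Ilk, which encodes integrin-linked kinase, had at most 3 counts in a library, and exons of Taf10 on the opposite strand cover 76.7% of its exon bases. The source of this low count was not tested. Genes whose products restrain integrin activation gave 1 of 5 lower, Dok2. The relay from the T cell receptor to Rap1 gave 1 of 10 lower, Lcp2. Over all genes tested 0.992% were lower. Without HDAC1-cKO replicate 2, Ptk2b fell and Rsu1 rose beside Lims1, and Zap70 and Lat were among the genes that fell beside Lcp2. The edgeR adjusted p ran from 0.0123 to 0.0495 for these 6 genes. In that fit 3.88% of all genes passed in either direction. Calls in the other role lists, apart from the effectors and the integrin chains, were as with all libraries.

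**Figure D4:**
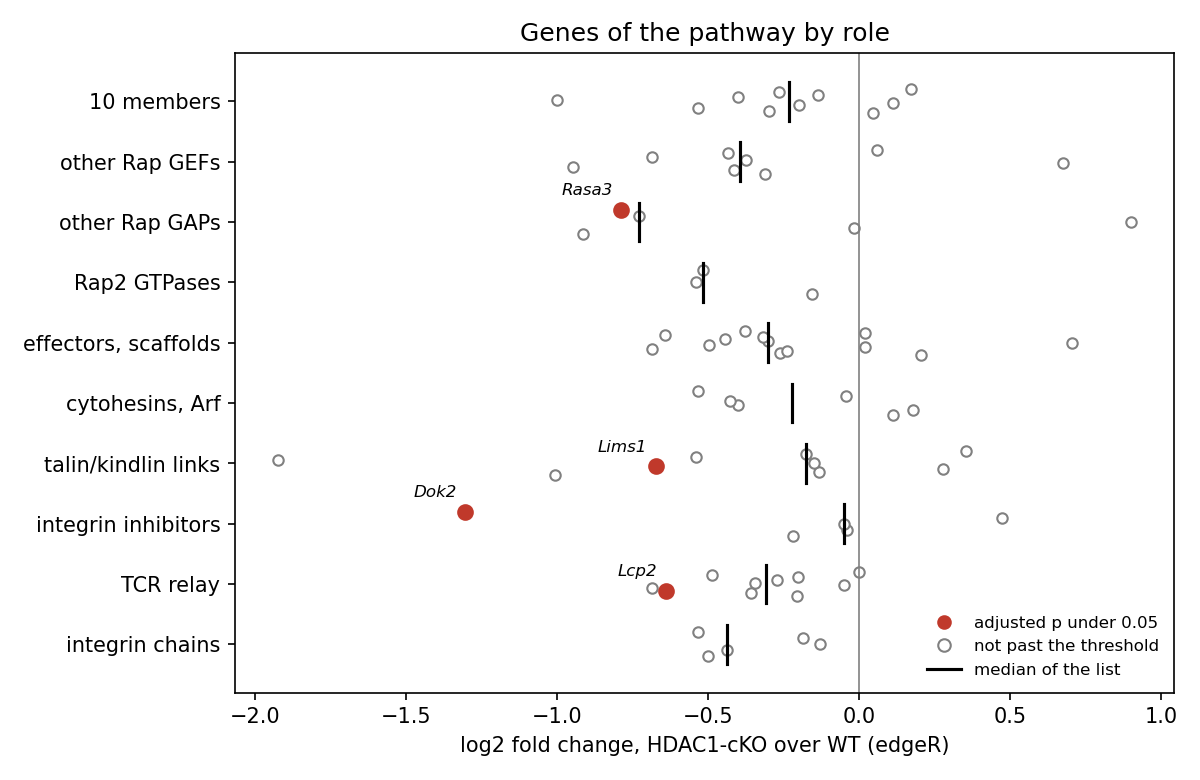
Log2 fold change, HDAC1-cKO over WT, of each tested gene by role, with 1 point per gene, filled red for an edgeR adjusted p under 0.05, and a black line at the median of each list. Filled points are Rasa3, Lims1, Dok2 and Lcp2, all left of 0, and the 10 members in the top line are all open.

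Of the integrin chains on which these proteins act, Itgb2 had a log2 fold change of -0.44 ± 0.10, Itgal of -0.50 ± 0.17, Itgb7 of -0.53 ± 0.13, Itgb1 of -0.19 ± 0.19 and Itga4 of -0.13 ± 0.50 (SE, edgeR adjusted p from 0.0683 to 0.934). Without HDAC1-cKO replicate 2, Itgb2, Itgal and Itgb7 fell (edgeR adjusted p = 0.0353, 0.0363 and 0.0412), where 3.88% of all genes in that fit passed. With any other library left out, each had an edgeR adjusted p above 0.05, of up to 0.252, 0.456 and 0.269. Those fits called only 26 to 49 genes in all. With the GC offsets and all libraries, Itgb7 and Itgb2 passed (edgeR adjusted p = 0.0223 and 0.0239). Itgal, Itgb1 and Itga4 did not (edgeR adjusted p = 0.0691, 0.698 and 0.970). Over all 15508 genes in that fit, 251 were higher and 237 lower.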

How the data were processed

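Polyadenylated RNA of 500 sorted cells per library was amplified by Smart-seq2 and sequenced as 50-base single reads, per the labels' protocols. The authors deposited raw read counts per gene and FPKM values. Per the submitters' processing notes, STAR 2.5.2b, Picard 2.19.2, DESeq2 1.24.0 and R 3.6.1 were used; the read counter, its strand setting and its treatment of multi-mapping reads were not given in the sources used here. Identifiers and positions of 55450 of 55536 genes, the 10 members included, equalled those of GENCODE M21 on GRCm38. In the deposited FPKM, the library factor equalled DESeq2's size factor, so that FPKM share this scale between libraries. Such a factor does not remove the deviations of HDAC1-cKO replicate 2 that went with GC content.

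Genes were filtered with filterByExpr, scaled by TMM and tested two-sided with edgeR 4.0.16 (R 4.3.3; robust quasi-likelihood, genotype as the term, Benjamini-Hochberg adjusted p under 0.05). SE and 95% intervals were derived from the quasi-likelihood p. Tests were tried on simulated data. Counts carry no molecular identifiers, so precision from depth covers counting error only. GC content, exon overlap and shared stretches came from GENCODE M21. The members and lists were chosen with earlier results of these data known. Genes outside the members were named if called, or as the lowest p of a role list without a call. Genes called only without HDAC1-cKO replicate 2 (Fyb, Prkd2, Ptk2b, Rsu1, Zap70 and Lat; 1 more is not reported here), and Tln2, Fermt1, Fermt2, Ilk, Cd3e, Cd8a, Cd8b1, Klrk1, Ncr1, Creb3, Gm9392 and Taf10 were named after their values were seen. Lyz2 and Cd68 were named in the same way. Alternatives were other scalings, filters and tools, thinned counts, a replicate block, GC and length offsets and leaving out each library. Figures used matplotlib 3.10.9.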

Additional observations from a re-analysis of the deposited data

How the results depend on the processing

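The count of members called higher was 0 under every alternative run, and that of members called lower was 0 except with DESeq2 and with limma-voom with sample weights, which each called 1, Apbb1ip. Leaving out any 1 library gave 0 and 0. Over the alternative fits of single members, 9 reversed direction and 178 kept direction and call. The reversals were in Fermt3, Rap1b, Cyth1 and Sipa1. Fermt3 turned to -0.13 with limma-voom, -0.0515 with GC offsets and -0.0153 with GC and length offsets, and ran from -0.21 to 0.20 without 1 library. Rap1b was 0.000591 with limma-voom and ran from -0.43 to 0.0683 without 1 library, Cyth1 from -0.39 to 0.0145, and Sipa1 from -0.0455 to 0.28. Apbb1ip had no value at a minimum of 10 CPM in 3 libraries.

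Over all genes, 152 were higher and 154 lower. The numbers were 704 and 664 with DESeq2, 770 and 819 with limma-voom, 254 and 247 with limma on log2(FPKM + 1), 23 and 15 with that test for any gene above 0, 251 and 237 with GC offsets, and 254 higher with GC and length offsets. Without a count filter 243 were lower. Without 1 library they ran from 15 to 258 higher and from 10 to 368 lower, highest without HDAC1-cKO replicate 2 (626 in all) and 26 to 49 in all without any other library. Pathway genes outside the members, 0 higher and 4 lower, became 2 and 13 with DESeq2, 2 and 15 with limma-voom, 2 higher with GC offsets and with GC and length offsets, 0 lower with limma on log2(FPKM + 1) for any gene above 0, and ran from 0 to 1 higher and from 0 to 11 lower without 1 library. The GC settings were chosen after seeing the data.

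With the replicate number as a block, 34 genes were higher and 31 lower, 0 members and 0 pathway genes were called, and no member changed direction. The labels do not say that equal numbers share a donor or day, and same-numbered libraries did not deviate together (r = 0.024, -0.002 and -0.042).

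With 3 libraries per genotype, single-gene 95% intervals of the members ran from -1.66 to 0.57 on the log2 scale.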
